A study of Mus musculus with 12 samples.

Results

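The piRNA pathway was followed in growing mouse oocytes through 10 of its genes, Tdrd1, Tdrd9, Tdrkh, Fkbp6, Mael, Piwil2, Ddx4, Asz1, Pld6 and Mov10l1, which were picked by name from the 23235 gene symbols measured. All 10 averaged 1 FPKM or more across the groups, the limit used for every count below, and so did 11913 genes in all. FPKM counts read fragments per length of transcript and per size of library, so levels of different genes can be set side by side. Poly(A) RNA was measured in wild-type (WT) and Mtr4-null oocytes from ovaries of female mice at day 14, labelled as growing germinal vesicle oocytes, and at day 21, labelled as germinal vesicle oocytes. MTR4 is an RNA helicase that unwinds transcripts in the nucleus and hands them to the exosome, which degrades them. The labels list 12 samples, 3 per genotype and age, each of 10 oocytes. They do not say how the deletion was made or driven, or whether the replicates were separate animals. The files used here give 1 mean per gene and group, made by the authors, so no value below has a replicate error, no test was possible, and differences are described by size. The day 21 mean of Mtr4-null oocytes has decimals unlike those of the other groups and may rest on fewer samples. WT oocytes are also called oocytes with MTR4, and Mtr4-null oocytes those without it.

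The piRNA pathway makes short RNAs in germ cells that guide PIWI proteins to transcripts of transposable elements and silence them. Long precursor transcripts are bound by helicases and carried to the surface of mitochondria, where they are cut, loaded into a PIWI protein and trimmed. Tudor domain proteins hold the PIWI proteins in place in granules beside the mitochondria. In mice, loss of most of these genes sterilizes males, while females remain fertile, and oocytes also silence transposons through short interfering RNAs made by Dicer.

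The 10 genes did not differ as a block in Mtr4-null oocytes. At day 21 the gene of the PIWI protein MILI, Piwil2, the helicase gene Ddx4 and the co-chaperone gene Fkbp6 were at least 2-fold higher than in WT. The Tudor domain genes Tdrd1, Tdrd9 and Tdrkh were at least 2-fold lower. Of all genes, 20.2% lay that far above and 25.7% that far below WT at day 21. The summed level of the 10 genes was nearly equal in the 2 genotypes, at 503 FPKM with MTR4 and 503 FPKM without it at day 14, and at 346 and 351 FPKM at day 21. At day 21 this depended on the scaling, since the sum was 1.33-fold higher in Mtr4-null oocytes under median-of-ratios scaling and 1.11-fold higher under quantile normalization. The make-up of the sum differed.

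The genes lie on 10 different chromosomes, so no 2 of them are neighbours. On GRCm38, Piwil2 spans chr14:70372477-70429383 on the minus strand. Promoter sequences, given by RefSeq on GRCm38 as 250 bases before and 50 bases after each transcript start, were found for 9 of the 10, all but Piwil2. Of these 9, 7 held the 6-letter motif CACGTG, which reads the same on both strands and does not overlap itself. It was the only motif searched. The motif was present in 7.15% of all 32851 promoter windows, and 11.8% of the 8394 genes that passed the filter and had a window held it in at least 1. Fkbp6 and Tdrd9 each held 2 copies, which 0.594% of all windows did. The share with 2 copies among genes that passed the filter was not counted. The 250 bases before the start are shown for genes that were at least 2-fold apart between genotypes at day 21, with CACGTG in capitals. They show that the motif was present both in genes that were higher (Fkbp6, Ddx4) and in genes that were lower (Tdrd1, Tdrd9), and that a gene without it, Tdrkh, was also lower.
Fkbp6, chr5:135350045-135350294, minus strand: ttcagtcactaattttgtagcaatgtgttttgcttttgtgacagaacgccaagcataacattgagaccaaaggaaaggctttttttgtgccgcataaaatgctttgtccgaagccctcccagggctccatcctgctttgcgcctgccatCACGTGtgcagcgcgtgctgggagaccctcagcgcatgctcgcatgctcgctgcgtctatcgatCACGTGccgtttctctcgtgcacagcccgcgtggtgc
Ddx4, chr13:112652311-112652560, minus strand: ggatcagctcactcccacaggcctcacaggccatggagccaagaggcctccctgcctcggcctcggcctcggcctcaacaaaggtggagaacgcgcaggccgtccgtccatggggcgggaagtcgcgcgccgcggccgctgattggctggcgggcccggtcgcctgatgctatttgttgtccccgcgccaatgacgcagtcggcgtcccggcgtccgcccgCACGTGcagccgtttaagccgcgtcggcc
Tdrd1, chr19:56825959-56826208, plus strand: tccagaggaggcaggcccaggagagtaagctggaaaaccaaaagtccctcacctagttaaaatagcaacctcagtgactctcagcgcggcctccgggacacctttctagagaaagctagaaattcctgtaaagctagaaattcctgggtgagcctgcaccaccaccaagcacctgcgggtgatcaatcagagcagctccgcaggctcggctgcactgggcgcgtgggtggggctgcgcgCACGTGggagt
Tdrd9, chr12:111971309-111971558, plus strand: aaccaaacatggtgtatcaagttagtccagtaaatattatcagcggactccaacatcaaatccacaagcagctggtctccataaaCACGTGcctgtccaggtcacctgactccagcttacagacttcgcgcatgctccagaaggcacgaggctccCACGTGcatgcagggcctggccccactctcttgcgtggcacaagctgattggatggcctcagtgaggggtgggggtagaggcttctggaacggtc
Tdrkh, chr3:94412994-94413243, plus strand: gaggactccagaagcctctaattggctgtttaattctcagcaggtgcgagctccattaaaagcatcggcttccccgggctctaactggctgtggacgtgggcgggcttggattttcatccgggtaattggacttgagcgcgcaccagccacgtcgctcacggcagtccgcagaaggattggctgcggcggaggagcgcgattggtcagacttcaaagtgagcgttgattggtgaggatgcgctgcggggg
Counted from the transcript start, the first base of the motif lay at -101 and -37 in Fkbp6, at -29 in Ddx4, at -11 in Tdrd1 and at -165 and -95 in Tdrd9. Mael, Pld6 and Mov10l1 held it at -223, -33 and -246. Asz1 held none in its window. A match of letters is a description of the sequence and does not show that any factor binds there.

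In WT oocytes at day 14 the genes covered a wide range of levels. Ddx4, which encodes the germ cell helicase also called VASA or MVH, was the most abundant at 149 FPKM. Asz1, which encodes the mitochondrial scaffold protein GASZ, stood at 117 FPKM, and Mael, whose product acts in the nuage and in piRNA precursor handling, at 85.5 FPKM. Tdrd1, which encodes a Tudor protein that binds MILI, stood at 61.9 FPKM, and Tdrkh, whose product tethers PIWI proteins at mitochondria for trimming, at 32.4 FPKM. Fkbp6, the partner of the chaperone HSP90 in piRNA loading, stood at 27.1 FPKM and the Tudor helicase gene Tdrd9 at 13.2 FPKM. Piwil2, Pld6 and Mov10l1 were the scarcest, at 7.28, 5.32 and 4.38 FPKM. Pld6 encodes the mitochondrial nuclease called Zucchini in the fly, and Mov10l1 the helicase that binds piRNA precursors. In level, Ddx4 and Asz1 lay at the 93.2nd and 91.5th percentile of the 11913 genes, and Mov10l1 at the 32.8th. Whether neighbours in this order differ beyond the spread between samples cannot be told without values per sample.

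**Figure D1:**
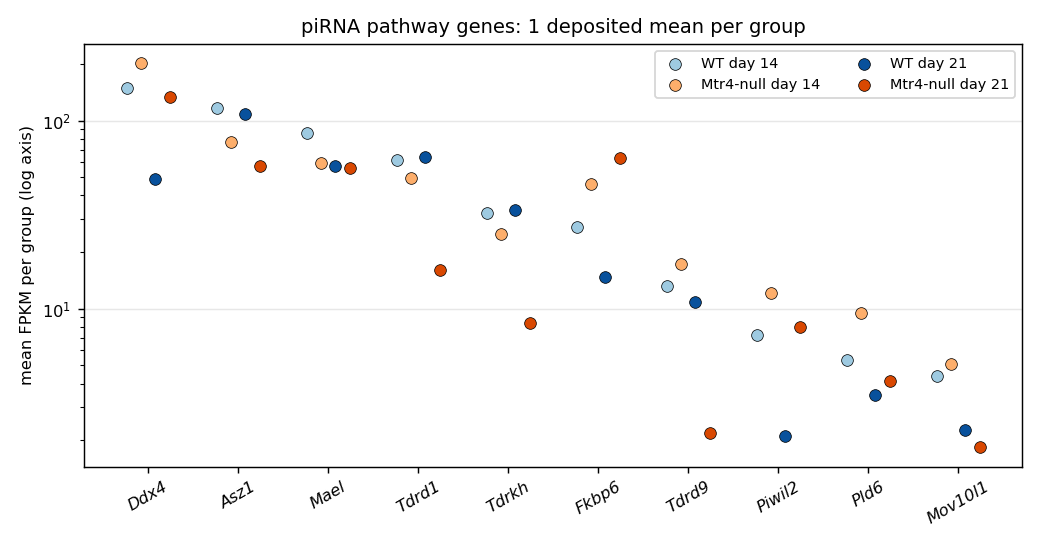
Mean FPKM of the 10 piRNA pathway genes in the 4 groups, on a log axis; each point is the deposited mean of a group, with no error available. Ddx4, Piwil2 and Fkbp6 have their lowest point in WT at day 21, and Tdrd1, Tdrd9 and Tdrkh have their lowest in Mtr4-null oocytes at day 21.

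The comparison of WT oocytes at day 21 with day 14 shows how these genes change as oocytes near full growth. Ddx4 stood at 149 FPKM at day 14 and at 49.0 FPKM at day 21, a 3.04-fold lower level. Piwil2 stood at 7.28 and 2.101 FPKM, 3.46-fold lower. The Ddx4 and Piwil2 levels were the only 2 of the 10 to be at least 2-fold apart, where 3.32% of all genes lay that far below and 2.02% above their day 14 level. Fkbp6 and Mov10l1 came close to that limit. Fkbp6 went from 27.1 to 14.7 FPKM, 1.85-fold lower, and Mov10l1 from 4.38 to 2.28 FPKM, 1.92-fold lower. Pld6 was 1.52-fold and Mael 1.49-fold lower. Asz1, Tdrd1 and Tdrkh hardly differed with age, at 117 and 109, 61.9 and 63.8, and 32.4 and 33.6 FPKM. In all, 8 of the 10 were lower at day 21, where 48.8% of all genes were higher. The median difference of log2(FPKM + 1) of the 10 was -0.53, beside -0.0044 for all genes. It was -0.53 with median-of-ratios scaling and -0.50 with quantile normalization. Of the 10 genes, Asz1 was thus the most abundant at day 21 and Piwil2 the scarcest.

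The comparison of genotypes at day 14 asks whether the pathway already differs without MTR4 in the younger oocytes, and no member was 2-fold apart in either direction. The gene of MTR4 itself, listed under its older symbol Skiv2l2, was 17.6-fold lower in Mtr4-null oocytes at this age and 6.80-fold lower at day 21. Across all genes, 8.10% lay above the 2-fold limit and 1.55% below it at day 14, in numbers 965 and 185, or 708 and 321 under quantile normalization. Pld6 differed most in ratio, with 5.32 FPKM with MTR4 and 9.43 FPKM without it, 1.77-fold higher. Fkbp6 was 1.70-fold higher, at 27.1 and 46.0 FPKM, Piwil2 1.67-fold higher, at 7.28 and 12.2 FPKM, and Ddx4 1.36-fold higher, at 149 and 202 FPKM. Asz1 and Mael lay the other way. Asz1 stood at 117 and 77.0 FPKM, 1.52-fold lower, and Mael at 85.5 and 59.7 FPKM, 1.43-fold lower. The Tudor genes differed less: Tdrd1 was 1.25-fold lower, Tdrkh 1.30-fold lower and Tdrd9 1.31-fold higher. The differences of log2(FPKM + 1) ran from -0.59 for Asz1 to 0.74 for Fkbp6, within the range from -0.64 to 1.39 that holds all genes between their 5th and 95th percentile.

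At day 21 the same comparison split the members into a higher and a lower group. Fkbp6 stood at 14.7 FPKM with MTR4 and 63.4 FPKM without it, 4.32-fold higher, and became the second most abundant of the 10. Piwil2 stood at 2.101 and 8.01 FPKM, 3.81-fold higher. Ddx4 stood at 49.0 and 134 FPKM, 2.73-fold higher. The genes of the PIWI protein MILI and of the germ cell helicase were thus closer to the WT levels of day 14, 7.28 and 149 FPKM, than to those of day 21. For Fkbp6 the Mtr4-null level lay above WT at both ages.

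The lower group held Tdrd1, Tdrkh and Tdrd9. Tdrd1 stood at 63.8 FPKM with MTR4 and 16.1 FPKM without it, 3.98-fold lower. Tdrkh stood at 33.6 and 8.44 FPKM, also 3.98-fold lower. Tdrd9 stood at 10.8 and 2.17 FPKM, 4.97-fold lower. All the Tudor genes among the 10 were in this group. Asz1 was 1.89-fold lower, at 109 and 57.6 FPKM, and short of the 2-fold limit. Mael, with 57.4 and 55.7 FPKM, Pld6, with 3.49 and 4.11 FPKM, and Mov10l1, with 2.28 and 1.83 FPKM, differed by less than 1.5-fold.

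The number of members apart at day 21 was near that among genes at large. Of the 10, 3 were at least 2-fold higher and 3 lower, beside 20.2% and 25.7% of all 11913 genes, so the counts alone do not set the members apart. Their median difference was -0.13, beside -0.27 for all genes. Without the filter on low FPKM, the members' median lay 0.13 below that of all genes rather than 0.15 above it. The same 6 genes were 2-fold apart, in the same direction, under median-of-ratios scaling, which rests on the 9805 genes with at least 1 FPKM in every group and moves the median of all genes to 0.045 and that of the members to 0.20. With that scaling 3028 of all genes were higher and 1965 lower, against 2410 and 3067 as deposited. Tdrd1, Tdrd9 and Tdrkh, at -1.93, -1.90 and -1.88, lay close to the 5th percentile of all genes, which was -2.01. Fkbp6, at 2.04, lay below the 95th percentile, which was 2.94.

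**Figure D2:**
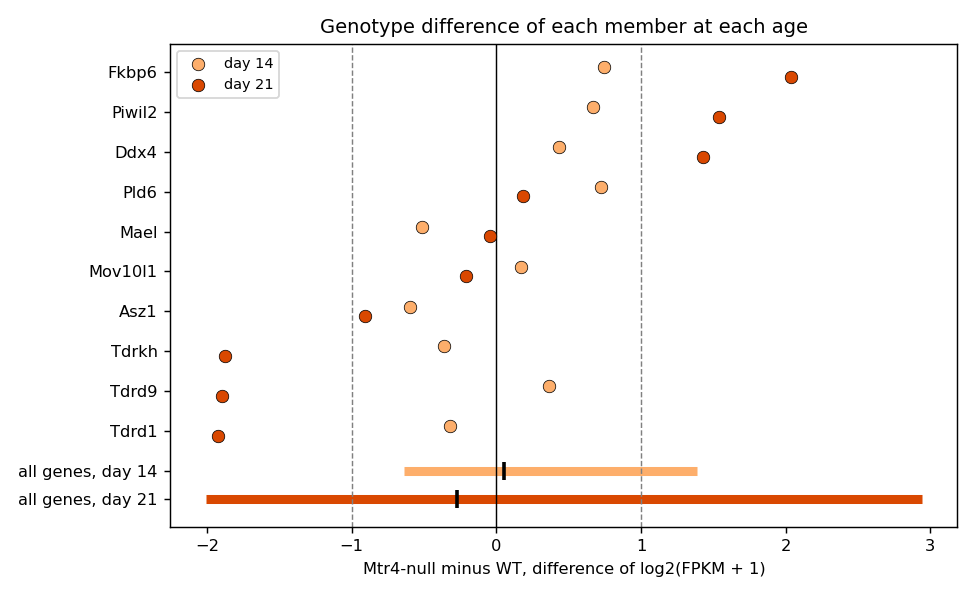
Difference of log2(FPKM + 1), Mtr4-null minus WT, of each member at day 14 and day 21; bars at the bottom span the 5th to 95th percentile of all 11913 genes, with their median as a tick, and dashed lines mark 2-fold. At day 14 all 10 points lie between the dashed lines, and at day 21 Fkbp6, Piwil2 and Ddx4 lie above and Tdrd1, Tdrd9 and Tdrkh below them.

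Ratios between 2 members within a group are not altered when all values of the group are multiplied by a factor, though quantile normalization does alter them. The pairs below were picked after the values were seen, so their direction follows from the choice. The FPKM ratio of Fkbp6 to Tdrd1 was 0.438 in WT at day 14 and 0.230 at day 21. In Mtr4-null oocytes the ratio was 0.929 at day 14 and 3.95 at day 21. The ratio of Ddx4 to Tdrd1 was 2.41 and 0.768 in WT at the 2 ages, and 4.08 and 8.32 in Mtr4-null oocytes. MILI and TDRD1 bind each other, and the ratio of their transcripts, Piwil2 to Tdrd1, was 0.117 and 0.0329 in WT and 0.245 and 0.499 in Mtr4-null oocytes. In these 3 pairs the ratio was lower at day 21 than at day 14 in WT and higher in Mtr4-null oocytes. The ratio of Ddx4 to Asz1 was also lower at day 21 in WT, at 1.28 and 0.450, but in Mtr4-null oocytes it was 2.62 at day 14 and 2.32 at day 21. Asz1 to Mael, by contrast, stayed between 1.03 and 1.90 in all 4 groups.

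As shares of the summed level of the 10 genes, Ddx4 made up 29.6% in WT at day 14 and 14.2% at day 21. In Mtr4-null oocytes it made up 40.2% and 38.1%. The share of Fkbp6 was 5.40% and 4.23% in WT and 9.15% and 18.1% in Mtr4-null oocytes. Tdrd1 went the other way, with 12.3% and 18.4% in WT and 9.84% and 4.57% in Mtr4-null oocytes. Mael kept a share between 11.9% and 17.0% throughout.

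**Figure D3:**
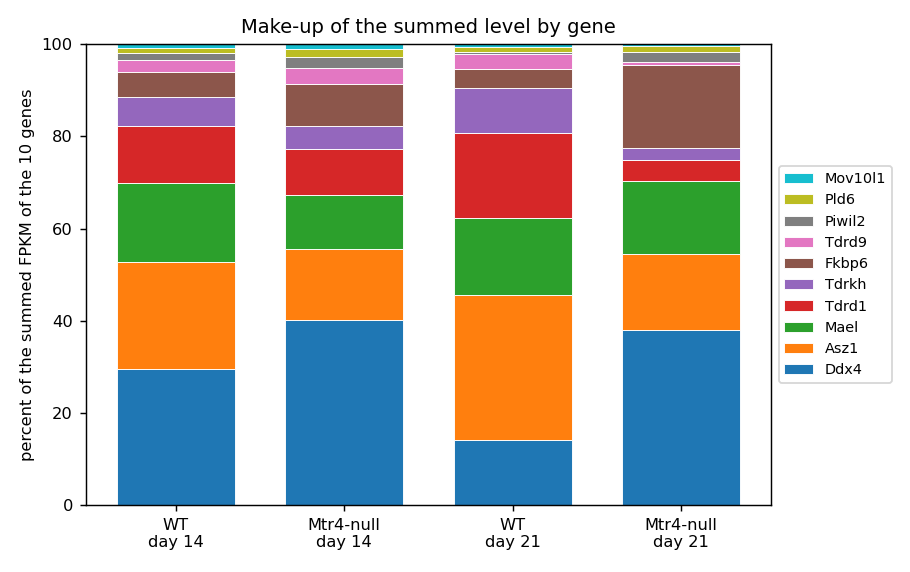
Share of each gene in the summed FPKM of the 10 piRNA pathway genes, in percent, for the 4 groups. From WT to Mtr4-null oocytes at day 21 the Ddx4 share goes from 14.2% to 38.1% and the Fkbp6 share from 4.23% to 18.1%, while the Tdrd1 share goes from 18.4% to 4.57%.

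Within Mtr4-null oocytes, day 21 was set against day 14. This comparison uses the same day 21 means as the one between genotypes, so its values are given beside those and are not further evidence. Tdrd9 went from 17.2 to 2.17 FPKM, 7.93-fold lower, the widest difference between ages of any member in either genotype. Tdrd1 went from 49.5 to 16.1 FPKM, 3.09-fold lower, and Tdrkh from 24.9 to 8.44 FPKM, 2.95-fold lower. Mov10l1 was 2.76-fold and Pld6 2.30-fold lower, at 5.06 and 1.83 FPKM and at 9.43 and 4.11 FPKM. That made 5 of 10 lower and none higher, where 18.6% of all genes lay below the 2-fold limit and 9.08% above it. Under median-of-ratios scaling and under quantile normalization 3 of the 10 were lower, without Pld6 and Mov10l1. The numbers over all genes also turn with scaling, from 1082 higher and 2216 lower as deposited to 1865 and 1020 under median-of-ratios scaling and 1483 and 1595 under quantile normalization. Ddx4 was 1.51-fold and Piwil2 1.52-fold lower at day 21, beside 3.04-fold and 3.46-fold in WT. Fkbp6 was 1.38-fold higher, where in WT it was 1.85-fold lower.

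The genotype ratio at day 21 divided by that at day 14 puts these differences into a single value per gene. It was 2.55 for Fkbp6, 2.28 for Piwil2 and 2.01 for Ddx4, and 0.154 for Tdrd9, 0.315 for Tdrd1 and 0.326 for Tdrkh. On the log2(FPKM + 1) scale 1 member differed by at least 2-fold upward, Fkbp6 at 1.30, and 3 downward, at -2.26 for Tdrd9, -1.61 for Tdrd1 and -1.51 for Tdrkh. Over all genes 13.6% differed upward and 22.4% downward, 1618 and 2672 genes, or 2428 and 1416 under median-of-ratios scaling and 1952 and 2053 under quantile normalization. Ddx4 at 0.99 and Piwil2 at 0.87 lay just short of the limit as deposited and past it under both of these scalings.

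Tdrd1 and Tdrkh had almost the same pattern over the 4 groups. After each gene's log2(FPKM + 1) values were centred on their mean, the Euclidean distance between them was 0.078, the smallest of any pair of members, and that between Piwil2 and Ddx4 was next at 0.21. Among all other genes, Rnf24 was the nearest to both Tdrd1 and Tdrkh, at distances of 0.039 and 0.058, with 55.6 and 58.0 FPKM at day 14 and day 21 in WT, and 45.0 and 14.9 FPKM without MTR4. Such patterns were common: 191 genes lay within 0.25 of Tdrd1 and 203 of Tdrkh. Isg20l2 was nearest to Fkbp6, at 0.017, Akirin1 to Piwil2, at 0.12, and Uqcrc1 to Ddx4, at 0.11. The Ddx4 pattern had 5 other genes within 0.25, that of Piwil2 13 and that of Fkbp6 71. Fhit was nearest to Tdrd9, at 0.18, with 5 genes within 0.25. Birc6 was nearest to Asz1, at 0.049. Nearest to Mael, Pld6 and Mov10l1 were 1700028P14Rik, Gpr146 and Slc24a2, at 0.069, 0.036 and 0.069. With 4 points a gene, likeness of this kind is easily met for patterns such as those of Tdrd1 and Tdrkh. Those of Ddx4, Tdrd9 and Piwil2 had fewer genes near them.

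Beyond the 10, 20 of 21 other genes of the piRNA pathway were in the table, and 17 passed the filter. At day 14 none of the 17 was 2-fold apart, and at day 21 2 were higher and 8 lower, beside 20.2% and 25.7% of all genes. Their median difference at day 21 was -0.87, beside -0.27 for all genes. Under median-of-ratios scaling it was -0.49, beside 0.045, with 3 higher and 6 lower. With that scaling 3028 of all 11913 genes were higher and 1965 lower. Gtsf1, which encodes a zinc finger partner of PIWI proteins, was the most abundant of the lower genes after the chaperone gene Hsp90aa1. Gtsf1 stood at 901 FPKM with MTR4 and 317 FPKM without it, and Hsp90aa1 at 970 and 357 FPKM. The Tudor genes Rnf17 and Stk31 stood at 28.6 and 9.08 FPKM and at 41.0 and 14.6 FPKM, and the Tudor helicase gene Tdrd12 at 207 and 98.0 FPKM. Under median-of-ratios scaling Tdrd12, with a difference of -0.68, was short of 2-fold. Another Tudor gene, Tdrd5, was short of it as deposited, at 118 and 77.9 FPKM. Tdrd7, also a Tudor gene, was lower as deposited, at 3.70 and 1.16 FPKM. Under median-of-ratios scaling Tdrd7 was short of 2-fold, at -0.88. Piwil1, the gene of the PIWI protein MIWI, was scarce in WT at 3.67 FPKM and stood at 0.364 FPKM in Mtr4-null oocytes, and passed the filter only through its WT level at day 21. Hsp90ab1 differed little, at 166 and 200 FPKM. The 2 higher genes were Wdr77 and Prmt5, the latter named after its values were seen, whose products form the arginine methyltransferase that prepares PIWI proteins for Tudor binding. Wdr77 stood at 0.246 FPKM with MTR4 and 9.71 FPKM without it, and passed the filter only through the latter, and Prmt5 at 4.57 and 12.2 FPKM.

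**Figure D4:**
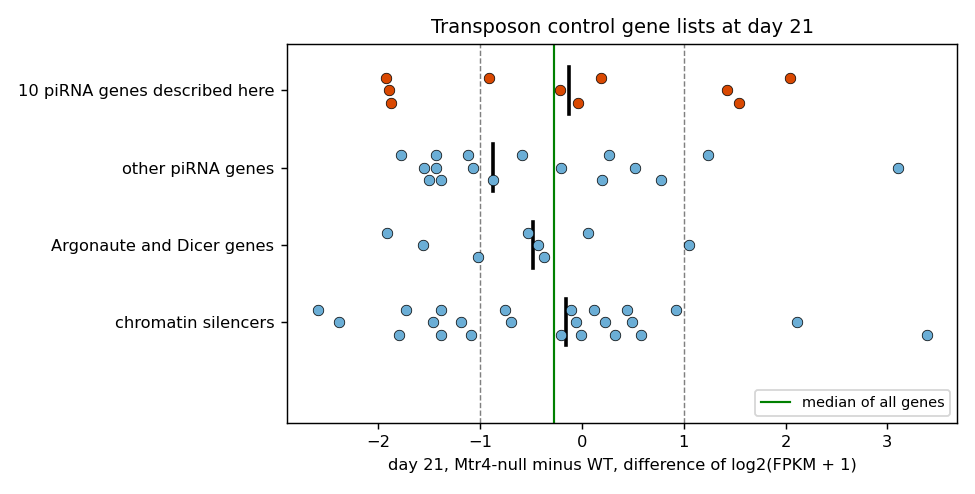
Difference of log2(FPKM + 1) at day 21, Mtr4-null minus WT, for the 10 members and for the measured genes of the 3 other lists; each point is a gene, black lines are list medians, the green line is the median of all genes and dashed lines mark 2-fold. The medians are -0.13 for the 10 members, -0.87 for the other piRNA genes, -0.48 for the Argonaute and Dicer genes and -0.16 for the chromatin silencers.

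Genes of the short interfering RNA and microRNA routes were read from a list of 10. A list of 25 held chromatin silencers of transposons and some other transposon regulators, such as Tex19.1. Its genes are called chromatin silencers here for short. Of 8 measured Argonaute and Dicer genes, 3 were lower and 1 higher at day 21, or 2 and 1 under median-of-ratios scaling. Dicer1, which cuts the double-stranded precursors, stood at 32.8 FPKM with MTR4 and 22.4 FPKM without it, and its partner gene Tarbp2 at 75.1 and 57.7 FPKM. Both were short of 2-fold. The microRNA export gene Xpo5 stood at 11.3 and 2.26 FPKM, the nuclease gene Drosha at 12.7 and 3.65 FPKM, and its cofactor gene Dgcr8 at 5.43 and 12.3 FPKM. Ago3, listed as Eif2c3, stood at 8.55 and 3.71 FPKM. Of 24 measured chromatin silencers, 9 were lower and 2 higher, or 6 and 3 under median-of-ratios scaling. For both lists the counts as deposited stand beside 25.7% lower and 20.2% higher among all genes. The list medians of -0.48 and -0.16 stand beside -0.27. The counts under median-of-ratios scaling stand beside 1965 lower and 3028 higher of all 11913 genes. The 2 genes of the list of 25 that were higher as deposited were Tex19.1 and Zfp809. Tex19.1, a germ cell regulator of retrotransposons, stood at 145 and 630 FPKM. Zfp809, a zinc finger gene that recognises retroviral DNA, stood at 2.91 and 40.0 FPKM. At day 14 Zfp809 was the only gene of these 2 lists to be 2-fold apart, at 3.48 and 11.0 FPKM. Dnmt3a, which encodes the enzyme of de novo DNA methylation, stood at 22.1 and 2.82 FPKM at day 21, and its cofactor gene Dnmt3l at 140 and 25.9 FPKM. The maintenance methyltransferase gene Dnmt1 stood at 262 and 100.3 FPKM, and its recruiter gene Uhrf1 at 227 and 67.9 FPKM. The chromatin remodeler gene Atrx stood at 33.0 and 8.79 FPKM, and Mphosph8, of the HUSH silencing complex, at 92.1 and 39.8 FPKM. Under median-of-ratios scaling Dnmt1, Mphosph8 and Ago3 were short of 2-fold, at -0.99, -0.80 and -0.70.

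The oocyte identity of the samples was checked against 10 markers, all of which stood between 29.7 and 4628 FPKM in every group. Their summed level ran from 11044 FPKM in Mtr4-null oocytes at day 21 to 19972 FPKM in WT at day 14, and 3 of the 10 were at least 2-fold lower in Mtr4-null oocytes at day 21, or 2 under median-of-ratios scaling, beside 25.7% of all genes as deposited. The 10 granulosa markers summed to between 15.1 and 32.4 FPKM, none was at 0, and Amh and Foxl2 stayed at or below 0.320 FPKM. The granulosa markers present at day 21 differed in both directions, with Cyp19a1 at 25.3 and 1.48 FPKM and Inha at 1.72 and 10.9 FPKM in WT and Mtr4-null oocytes. Of 11 markers of stroma, endothelium and blood, 4 or 5 were at 0 in each group, and their sum of 3.10 to 21.6 FPKM was mostly Pecam1, with 20.7 FPKM with MTR4 and 2.13 FPKM without it at day 21. The part of other cells in the values above was not tested. As FPKM are scaled to library size, a change in total RNA per oocyte would not show in them.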

How the data were processed

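Oocytes were lysed with spike-in RNA added, per the labels' protocols, and Smart-seq2 libraries were prepared. This method reads whole transcripts and keeps no strand. The submitters' processing notes name TopHat2 2.1.1, Cufflinks 2.2.1 and mm9, with no role. The deposited table holds FPKM, averaged by the authors to a single column for each group. In 3 columns 55.4% to 57.4% of the nonzero values end in repeated 3s or 6s, as means of 3 do. In Mtr4-null day 21 only 0.162% do, whereas 92.3% of 2211 values between 10 and 100 with 5 decimals end in 5, as means of 2 do. Columns summed to between 595721 and 649983 FPKM. Library depth is unknown, and the tests planned for values per sample could not be run.

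Differences are of log2(FPKM + 1) between group means, which understates the fold of low genes. Genes averaging below 1 FPKM were left out of counts, and 2-fold is a log2 difference of 1. Plain ratios are of FPKM. Members and lists were chosen with earlier results of these data known. Beyond the members and the gene of MTR4, genes were named by rule: up to 6 per list at least 2-fold apart between genotypes, the 2 most abundant others, the nearest gene by pattern, and overlapping or neighbouring genes. Prmt5, Tdrd5, Tdrd7 and the cell type markers named fall outside it and were chosen after their values were seen. Older symbols were matched through RefSeq synonyms. Positions came from GENCODE vM21 and promoters from RefSeq, both on GRCm38, not the authors' build. Alternatives were a pseudocount of 0.1, median-of-ratios scaling, quantile normalization, no filter, and a minimum mean FPKM of 5. Python 3.11.15, pandas 2.3.3 and numpy 2.4.6 were used, and scaling and calling were tested on simulated data.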

Additional observations from a re-analysis of the deposited data

Results flagged for a closer look

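Tdrd9 is singled out because, of the members, only its genotype difference pointed in opposite directions at the 2 ages under all 3 scalings. The difference of log2(FPKM + 1), Mtr4-null minus WT, was 0.36 at day 14 and -1.90 at day 21. With 1 mean per group, the difference between the ages was not tested.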

How the results depend on the processing

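Of 245 recomputed differences of single members, 235 stayed on the same side of the 2-fold limit, 10 crossed it and none changed sign after being called. The 245 include the 2 filter settings, no filter and a minimum mean FPKM of 5. A filter cannot alter the difference of a single gene, so those values stayed the same by design. Only the pseudocount and the 2 other scalings could move a member. The 10 that crossed belong to the age comparison in Mtr4-null oocytes and to the difference of the genotype differences. In the former, 3 members rather than 5 were lower under median-of-ratios scaling and 3 under quantile normalization. In the latter, 3 members rather than 1 were higher under median-of-ratios scaling, 3 under quantile normalization and 3 with a pseudocount of 0.1. Over all genes, a pseudocount of 0.1 took the number at least 2-fold apart from 1150 to 1740 between genotypes at day 14 and from 637 to 1282 between ages in WT. A minimum mean FPKM of 5 kept 9 of the 10 members, all but Mov10l1. No paired analysis was possible because the columns are group means and carry no replicate numbers. For the same reason leaving out single replicates was not run.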

Other observations

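The 6 members 2-fold apart between genotypes were flanked by 8 measured genes. At day 21, 5 of these differed from WT in the same direction as their member and 3 in the other. Of all genes, 41.1% lay above WT at that age. Mrpl9, the nearest annotated gene at higher coordinates than the lower Tdrkh, stood at 104 FPKM in WT oocytes and 816 FPKM in those without MTR4. Vwa2, beside Tdrd1, stood at 11.4 and 4.54 FPKM, and Ccdc186, on its other side and listed as A630007B06Rik, at 67.7 and 34.1 FPKM. Trim50, beside the higher Fkbp6, stood at 0.423 and 0.0990 FPKM, below the filter on low FPKM. Polr3d, beside Piwil2, stood at 8.67 and 18.0 FPKM, and Slc38a9, beside Ddx4, at 7.82 and 9.85 FPKM. Aspg and Atp5mpl, the latter listed as 2010107E04Rik, flank Tdrd9 and stood at 2.67 and 6.75 FPKM and at 917 and 544 FPKM.

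Some members overlap other annotated genes. Oaz3 overlaps Tdrkh on the opposite strand and stood at 2.75 FPKM with MTR4 and 0.663 FPKM without it at day 21. Gm42463 and Gm42464 also overlap Tdrkh and had no measured value. Rd3l overlaps Tdrd9 on the opposite strand, and short RNA loci overlap Piwil2 and Mov10l1. The libraries keep no strand, so reads from a shared stretch cannot be assigned to either gene with certainty.

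The members also differ in structure. Their longest coding transcripts in GENCODE run from 2 exons in Pld6 to 36 in Tdrd9. Of the genes higher at day 21, Fkbp6 has 9 exons, Ddx4 22 and Piwil2 23, and of the lower ones Tdrkh has 14 and Tdrd1 25.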
